A study of Mus musculus with 30 samples.

Results

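*Nr1d1*, *Nr1d2*, and *Rora* encode 3 nuclear receptors of the circadian clock, REV-ERBα, REV-ERBβ, and RORα. They were followed in mouse liver RNA by their symbols among the 54429 genes of a time course and by their Ensembl identifiers among the 55471 genes of a knockout experiment, and all 3 members were found in both. In the time course, livers of wild-type C57BL/6J males were taken at 2, 6, and 12 months of age at zeitgeber time (ZT) 1, 5, 9, 13, 17, and 21, where ZT0 is lights on in a 12-h light and 12-h dark cycle. Each age and time had 1 library, 18 in all. In the knockout experiment, floxed *Egr-1* mice carried *Alb*-Cre, which is active in hepatocytes (KO), and liver cells without active Cre keep the gene. Littermates without the deletion served as wild type (WT). Per the study's methods, the KO lines, of strain 129, had been backcrossed to C57BL/6J. Livers of the experiment were taken at 2, 6, and 12 months at the time when Egr-1 protein was highest (H) or lowest (L) at that age. These times were ZT13 and ZT17 at 2 months, ZT9 and ZT21 at 6 months, and ZT5 and ZT21 at 12 months. Each combination of genotype, age, and collection had 1 library, 12 in all, which gave 6 pairs of WT and KO. The study speaks of several mice per group for its knockout transcriptomes, whereas the labels give 1 library per group and do not say how mice were combined, so that no spread between mice of 1 age and time could be measured. The other libraries of a fitted model stood in for replicates in every test.

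REV-ERBα and REV-ERBβ are repressors. They bind heme, recruit the NCoR and HDAC3 corepressor complex, and switch off *Arntl* (BMAL1) and other genes whose response elements contain AGGTCA after an A/T-rich stretch. RORα binds the same elements and activates transcription, so the level of these genes depends on which receptor is bound. BMAL1 and CLOCK in turn drive *Nr1d1* and *Nr1d2* through E-boxes, which closes the loop. In liver the REV-ERBs also hold down genes of lipid and glucose metabolism.

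*Nr1d1* (ENSMUSG00000020889) lies on chromosome 11 of GRCm38 from 98767932 to 98775333 on the minus strand. *Nr1d2* (ENSMUSG00000021775) lies on chromosome 14 from 18204054 to 18239127 on the minus strand, and *Rora* (ENSMUSG00000032238) on chromosome 9 from 68653786 to 69388246 on the plus strand. The 250 bases before the RefSeq start of each gene (build GRCm38.p6) are shown because *Nr1d1* and *Nr1d2* moved together over the day and *Rora* did not. They span 98775378 to 98775627 on chromosome 11, 18239107 to 18239356 on chromosome 14, and 68653536 to 68653785 on chromosome 9. Capitals mark the only match found among the motifs searched.
Nr1d1: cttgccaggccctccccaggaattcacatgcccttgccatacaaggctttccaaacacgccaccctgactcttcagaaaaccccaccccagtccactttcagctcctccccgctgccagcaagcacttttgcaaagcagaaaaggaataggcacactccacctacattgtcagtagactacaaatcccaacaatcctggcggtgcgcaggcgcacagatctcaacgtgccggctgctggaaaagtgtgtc
Nr1d2: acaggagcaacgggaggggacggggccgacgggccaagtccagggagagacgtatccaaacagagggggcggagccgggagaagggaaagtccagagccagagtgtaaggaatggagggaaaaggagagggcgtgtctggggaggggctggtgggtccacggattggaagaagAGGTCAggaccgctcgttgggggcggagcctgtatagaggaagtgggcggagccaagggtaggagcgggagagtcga
Rora: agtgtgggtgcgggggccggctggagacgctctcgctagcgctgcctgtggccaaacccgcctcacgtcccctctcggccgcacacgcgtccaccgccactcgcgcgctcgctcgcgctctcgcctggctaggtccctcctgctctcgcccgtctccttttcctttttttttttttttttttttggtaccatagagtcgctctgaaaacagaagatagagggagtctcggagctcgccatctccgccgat

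On both strands, the windows were searched for the E-box CACGTG, the D-boxes TTATGTAA and TTACGTAA, the receptor core AGGTCA, its direct repeat (AGGTCA, any 2 bases, AGGTCA), and the EGR motif GCGNGGGCG. The direct repeat contains the core. *Nr1d2* holds 1 core, from 77 to 72 bases before its start, as do 14.0% of the 32851 RefSeq windows of this length. None of the other motifs was found in the 3 windows. They were present in 6.02% (E-box), 0.931% (D-boxes), 0.00913% (direct repeat), and 4.70% (EGR motif) of all windows. A window of this length leaves out more distant elements and introns, and a missing match says only that these letters are not in it.

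*Nr1d1* had a steep daily rise and fall at each age, and its hour of highest RNA was later at 6 months. Levels are given as CPM, the count relative to the TMM-normalised library total, with exact Poisson 95% intervals that cover counting error only. At 2 months, *Nr1d1* was 10.3 CPM at ZT1, 77.1 at ZT5, 29.8 at ZT9, 8.43 at ZT13, 1.01 at ZT17, and 1.71 at ZT21. At 6 months, it was 3.55 CPM at ZT1, 13.6 at ZT5, 29.9 at ZT9, 18.4 at ZT13, 5.94 at ZT17, and 0.97 at ZT21. At 12 months, it was 13.2 CPM at ZT1, 44.3 at ZT5, 36.0 at ZT9, 15.4 at ZT13, 5.67 at ZT17, and 1.34 at ZT21. The highest library was thus ZT5 at 2 and 12 months and ZT9 at 6 months. At ZT5, the intervals of the 3 ages did not overlap (72.9 to 81.5, 11.7 to 15.8, and 41.0 to 47.7 CPM at 2, 6, and 12 months). The lowest library held 15 reads of *Nr1d1* at 2 months, 13 at 6 months, and 19 at 12 months, so that the ratio of the highest to the lowest library (76.2, 30.8, and 33.1) rests on small counts.

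**Figure D1:**
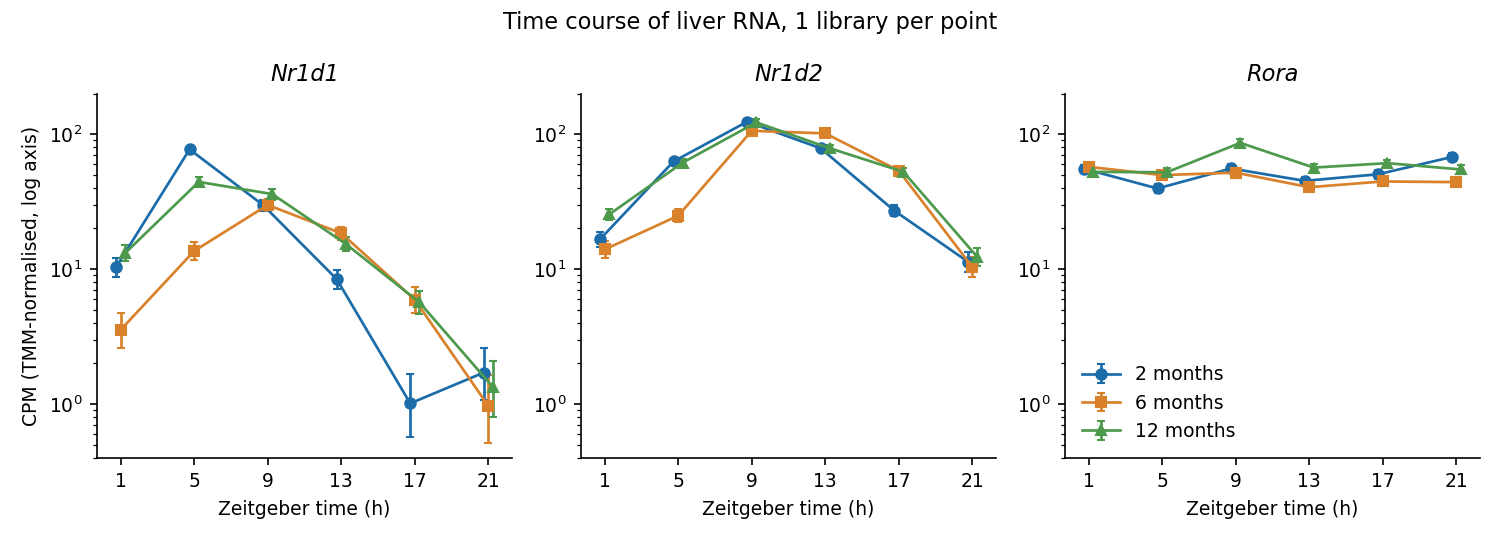
TMM-normalised CPM (log axis) of *Nr1d1*, *Nr1d2*, and *Rora* against zeitgeber time (h) at 2, 6, and 12 months, with 1 library per point and exact Poisson 95% intervals as bars. *Nr1d1* spans 0.97 to 77.1 CPM and *Nr1d2* 10.4 to 123.5 CPM, while *Rora* stays between 39.6 and 86.2 CPM.

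In the curves fitted below, *Nr1d2* had a later peak and a smaller amplitude than *Nr1d1* at each age, without a test between the 2 genes. At 6 and 12 months, the 95% intervals of the 2 amplitudes overlapped. ZT9 was the highest library of both genes at 6 months. At 2 months, *Nr1d2* was 16.6 CPM at ZT1, 62.8 at ZT5, 123.5 at ZT9, 78.6 at ZT13, 27.1 at ZT17, and 11.4 at ZT21. At 6 months, it was 14.0 CPM at ZT1, 24.9 at ZT5, 105.8 at ZT9, 101.3 at ZT13, 53.6 at ZT17, and 10.4 at ZT21. At 12 months, it was 25.4 CPM at ZT1, 61.5 at ZT5, 122.2 at ZT9, 78.5 at ZT13, 52.6 at ZT17, and 12.4 at ZT21. ZT9 was the highest and ZT21 the lowest library at each of the 3 ages, with ratios of 10.9, 10.2, and 9.87 at 2, 6, and 12 months. The ages differed most at ZT5, where the 6-month library was below the other two.

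*Rora*, the activator, was nearly flat. Its 6 libraries ranged from 39.6 to 67.7 CPM at 2 months (median FPKM 4.04), from 40.5 to 57.3 CPM at 6 months, and from 52.2 to 86.2 CPM at 12 months. The lowest and highest were ZT5 and ZT21 at 2 months, ZT13 and ZT1 at 6 months, and ZT5 and ZT9 at 12 months, so that no time of day was high at every age. The 86.2 CPM of the 12-month ZT9 library stood above the next value of that age, 61.0 CPM at ZT17. This library also had the highest summed level of red blood cell, B cell, and hepatocyte markers of the 18, and the part of these in the *Rora* value was not tested.

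To compare genes, levels were also taken per kilobase of exon (FPKM). Over the 18 libraries, mean FPKM was 10.1 for *Nr1d2* (range 1.84 to 22.1), 5.69 for *Nr1d1* (0.303 to 24.7), and 4.10 for *Rora* (2.99 to 6.16). *Rorb* had 0 reads in all 30 libraries. The ranges of neighbours in the order *Nr1d2*, *Nr1d1*, *Rora* overlapped, and the order turned over within the day. At ZT21, *Nr1d1* FPKM was 0.11, 0.09, and 0.10 times that of *Rora* at 2, 6, and 12 months. At its highest library, *Nr1d1* was 8.28 times *Rora* at 2 months, 2.45 times at 6 months, and 3.61 times at 12 months. *Nr1d2* was 0.41, 0.57, and 0.55 times *Rora* at ZT21, and its highest ratio to *Rora* was 5.36 at ZT9 at 2 months, 6.05 at ZT13 at 6 months, and 3.43 at ZT9 at 12 months. *Nr1d2* FPKM exceeded that of *Nr1d1* in 15 of the 18 libraries, and the exceptions were ZT1 and ZT5 at 2 months and ZT5 at 12 months.

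Rhythms were tested by fitting a 24-h cosine curve to each age in edgeR over all 18 libraries, with Benjamini-Hochberg adjustment over all genes. *Nr1d1* and *Nr1d2* passed an adjusted p of 0.05 at each age and *Rora* at none. Of the 13361 genes tested, 5.13%, 4.85%, and 3.63% passed at 2, 6, and 12 months. The adjusted p was 3.9e-05, 6.1e-04, and 8.1e-04 for *Nr1d1* and 9.2e-05, 4.9e-05, and 7.5e-04 for *Nr1d2* at 2, 6, and 12 months. For *Rora*, it was 0.530, 0.615, and 0.451. On the log2 scale, the amplitude of *Nr1d1* (mean to peak) was 2.99 in the 2-month group (95% interval 2.4 to 3.6), 2.07 in the 6-month group (1.5 to 2.6), and 2.02 in the 12-month group (1.5 to 2.5). It ranked 4th of 685, 19th of 648, and 14th of 485 rhythmic genes at these ages. The amplitude of *Nr1d2* was 1.73, 1.81, and 1.42, and that of *Rora* 0.20, 0.19, and 0.25, where the lower bound was under 0 at each age. Leaving out 1 time point moved the *Rora* amplitude between 0.05 and 0.41 at 2 months, 0.13 and 0.25 at 6 months, and 0.10 and 0.39 at 12 months. The median amplitude of the rhythmic genes was 0.64, 0.66, and 0.64.

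The fitted peak of *Nr1d1* was at ZT6.43 (standard error 0.31 h) at 2 months, ZT9.64 (0.46 h) at 6 months, and ZT7.39 (0.43 h) at 12 months. That of *Nr1d2* was at ZT9.64 (0.35 h), ZT11.66 (0.34 h), and ZT10.17 (0.42 h). When each time point was left out in turn, the peak of *Nr1d1* stayed between ZT5.96 and ZT6.78 at 2 months, ZT9.28 and ZT9.78 at 6 months, and ZT7.10 and ZT7.76 at 12 months. An exact permutation test of the order of the 6 values of an age (two-sided, 720 orders) can give no p under 0.0333. *Nr1d1* had this p at 2 and 6 months and the next, 0.133, at 12 months. *Nr1d2* had an exact p of 0.0333 at 2 and 12 months and 0.133 at 6 months. Of 12470 genes, 8.66%, 8.18%, and 6.43% had the smallest p at 2, 6, and 12 months, and 0 passed after adjustment. For *Rora*, the exact p was 0.783, 0.533, and 0.533.

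**Figure D2:**
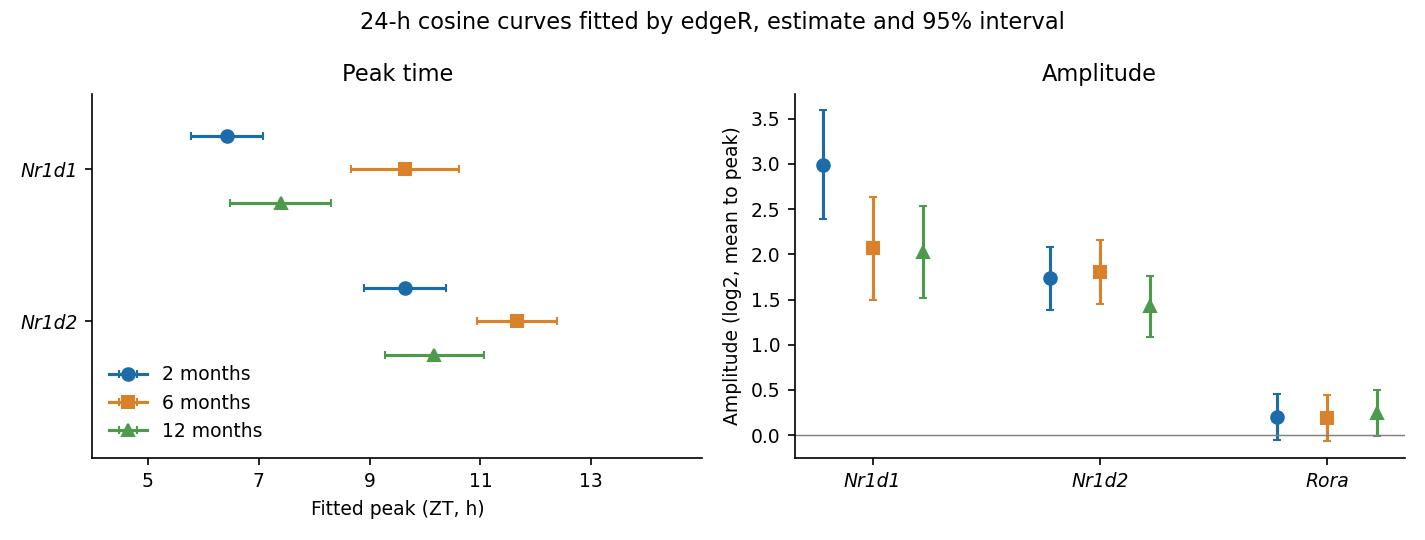
Peak time (left, ZT in h) and amplitude (right, log2 units from mean to peak) of the 24-h curves fitted by edgeR, with 95% intervals, at 2, 6, and 12 months. The *Nr1d1* peak moves from ZT6.43 at 2 months to ZT9.64 at 6 months, and the 3 *Rora* amplitudes lie at 0.19 to 0.25 with intervals that reach below 0.

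Whether the rhythm differed between ages was tested from the cosine and sine terms together, and the size of the change is the length of the difference between the curves on the log2 scale. *Nr1d1* differed between 6 and 2 months (2.23, adjusted p = 0.0312), a call made in 15 of 13361 genes (0.112%). Its peak was 3.21 h later (95% interval 2.04 to 4.38) and its amplitude 0.92 lower (the interval of the difference ran from -1.75 to -0.09). The call was lost without ZT5 (1.91, adjusted p = 0.446), without ZT13 (2.72, adjusted p = 0.108), and without ZT17 (1.96, adjusted p = 0.328). The 6-month libraries had summed neutrophil markers of 21.4 to 140.5 CPM, compared with 1.96 to 5.63 CPM at 2 months and 4.08 to 11.0 CPM at 12 months. The highest of them was ZT5, the library in which *Nr1d1* differed most from the 2-month value, and the part of these markers in the change was not tested. Between 12 and 2 months, the size for *Nr1d1* was 1.15 (adjusted p = 0.955), with a peak 0.96 h later (-0.16 to 2.08) and an amplitude 0.97 lower (-1.76 to -0.18). Between 12 and 6 months, it was 1.18 (adjusted p = 0.245), with a peak 2.24 h earlier (-3.57 to -0.92). Between 12 and 2 months, 0 of 13361 genes passed in edgeR (0%), 609 had an unadjusted p under 0.05, and 14 passed with DESeq2. Between 12 and 6 months, 0.0898% of genes passed.

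*Nr1d2* had a size of 0.93 between 6 and 2 months (adjusted p = 0.174), and its peak was 2.02 h later (0.98 to 3.06) with an amplitude difference of 0.07 (-0.42 to 0.57). Between 12 and 2 months, its peak differed by 0.53 h (-0.64 to 1.70). Without a test of the 2 genes against each other, the later peak at 6 months was 3.21 h for *Nr1d1* and 2.02 h for *Nr1d2*. For *Rora*, no peak time is given, since no rhythm was called.

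The mean level over the day was compared between ages with ZT as a block, a test that 13.7% of genes passed between 6 and 2 months, 11.9% between 12 and 2 months, and 16.3% between 12 and 6 months. None of the 3 members passed. The log2 fold change of *Nr1d1* was -0.31 (standard error 0.43) at 6 over 2 months, 0.22 (0.40) at 12 over 2 months, and 0.53 (0.41) at 12 over 6 months. Without 1 time point, the 12 over 2 month value ran from 0.013 (without ZT17) to 0.62 (without ZT5) and the 12 over 6 month value from 0.30 (without ZT1) to 0.81 (without ZT13). The values of *Nr1d2* were -0.07 (0.21), 0.26 (0.20), and 0.33 (0.20). For *Rora*, they were -0.11 (0.12), 0.22 (0.12), and 0.33 (0.12), and the last had an adjusted p of 0.0712, with 5 of 6 time points higher at 12 months.

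*Nr1d1* overlaps the 3′ end of *Thra*, the gene of thyroid hormone receptor α, which runs towards it on the other strand. They share 263 of the 3077 exon bases of *Nr1d1*. Whether the counting used strand is not given in the sources used here, so that reads in the shared bases cannot be told apart. *Thra* lay between 6.17 and 17.6 CPM in the 18 libraries, and it was highest at ZT1 at each of the 3 ages, when *Nr1d1* was rising or low. *Thra* was higher at 12 than at 2 months (log2 fold change 0.40, adjusted p = 0.0448) and than at 6 months (0.38, adjusted p = 0.0459). *Rora* shares 82 exon bases with the antisense gene *Gm15511*.

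Of 15 genes known as targets of REV-ERB and ROR, 14 passed the filter on low counts in the time course. Of these, 9, 9, and 10 had a rhythm at 2, 6, and 12 months of age, beside 5.13%, 4.85%, and 3.63% of all genes. The list includes clock genes and was chosen with earlier results of these data known. Among those called at all 3 ages were *Arntl*, *Clock*, *Npas2*, *Cry1*, *Nfil3*, *Elovl3*, *Insig2*, and *Cdkn1a*. *Lpl*, which encodes lipoprotein lipase, was called at 12 months. The median amplitude of the 14 was 1.14, 1.12, and 1.08. *Apoc3*, *G6pc*, *Pck1*, and *Ppargc1a*, genes of lipoproteins and gluconeogenesis, were called rhythmic at none. A repressor's targets can be read against its trough. The *Nr1d1* trough fell at ZT18.4, ZT21.6, and ZT19.4 at 2, 6, and 12 months. *Arntl* peaked 3.29, 2.61, and 3.62 h after it. *Npas2*, the paralogue of *Clock*, peaked 3.96, 3.93, and 5.81 h after it. *Elovl3*, a fatty acid elongase, peaked 4.07, 2.61, and 4.77 h after it, and *Cry1* within 0.34 h of it at each age. Of these 8 genes, *Cdkn1a*, the gene of the cell cycle inhibitor p21, moved most between ages, from 1.70 h after the trough at 2 months to 4.50 h at 6 months and 2.35 h at 12 months. These intervals are descriptions from curves of the same libraries and were not tested.

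**Figure D3:**
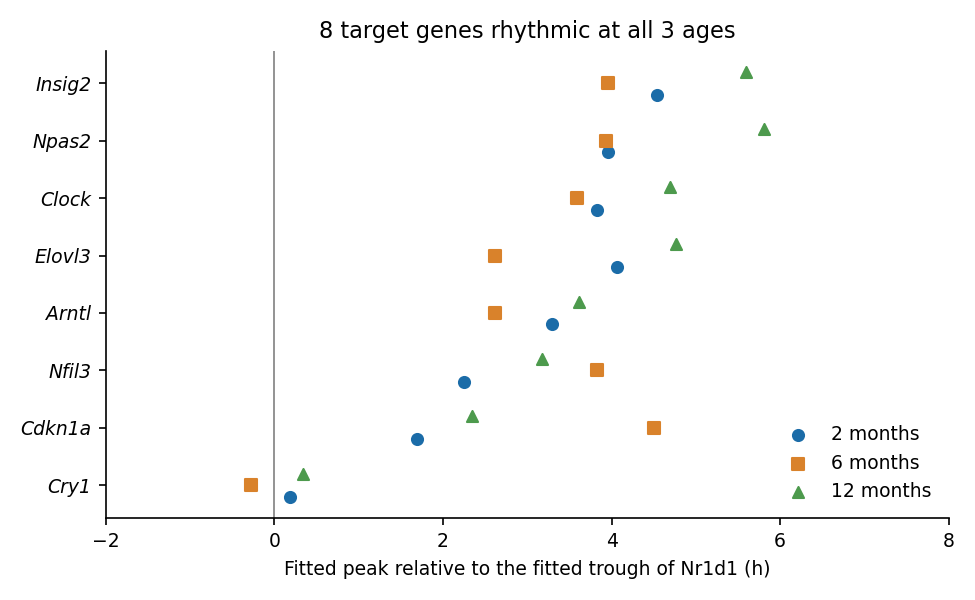
Fitted peak of 8 target genes rhythmic at all 3 ages, in hours after (positive) or before (negative) the fitted *Nr1d1* trough of the same age, with 1 point per age. *Cry1* lies within 0.34 h of the trough at each age, and the other 7 genes lie after it.

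The change of rhythm passed in 0 of the 14 targets in each of the 3 comparisons of ages (edgeR, adjusted over all genes), while the unadjusted p was under 0.05 in 10 for 6 over 2 months, 4 for 12 over 2 months, and 5 for 12 over 6 months. Over all 13361 genes, the unadjusted p was under 0.05 in 1443, 609, and 1452 in the same order, and DESeq2 called 210, 14, and 230. DESeq2 called 4 of the targets for 6 over 2 months (*Cdkn1a*, *Cry1*, *Insig2*, and *Nfil3*), 0 for 12 over 2 months, and 2 for 12 over 6 months (*Lpl* and *Nfil3*). The level fell in 4 of 14 between 2 and 6 months (28.6%, where 6.47% of all genes fell), among them *Apoc3* by 0.32, *Lpl* by 0.67, and *G6pc*, the gluconeogenic phosphatase, by 0.96 on the log2 scale. Between 2 and 12 months, *Lpl* fell by 0.61 and *Pck1* by 0.88 (5.36% of all genes fell). *Apoc3* and *G6pc* were higher at 12 than at 6 months, by 0.29 and 0.96 (8.13% of all genes rose). The summed hepatocyte markers, which are also liver transcripts, ran from 57410 to 107968 CPM at 6 months and from 92819 to 105749 CPM at 2 months, and their part in these levels was not tested. In bulk RNA, fewer hepatocytes and less RNA per hepatocyte cannot be told apart.

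Of 15 genes that act on *Nr1d1* and *Nr1d2* through E-boxes and D-boxes, 13, 12, and 13 were rhythmic at the 3 ages. Over all genes, the shares were 5.13%, 4.85%, and 3.63%. This list was chosen as the targets were and shares clock genes with them. The median amplitudes of the 15 were 1.39, 1.37, and 1.32. *Bhlhe40* and *Cry2* were called at none, and *Per1* was not called at 6 months (amplitude 0.48, adjusted p = 0.365). The D-box activator *Dbp* had peaks at ZT9.07, ZT11.8, and ZT10.2. The change of rhythm passed in 0 of the 15 at each comparison of ages in edgeR. For 6 over 2 months, 12 reached an unadjusted p under 0.05, and DESeq2 called 4 (*Bhlhe41*, *Cry1*, *Nfil3*, and *Per2*). For 12 over 2 and 12 over 6 months, the unadjusted counts were 5 and 5, and DESeq2 called 0 and 2. These stand beside the all-gene counts given for the targets. In level, *Cry2* fell by 0.59 on the log2 scale between 2 and 6 months, which is 1 of 15 (6.67%), near the 6.47% of all genes that fell.

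Of 17 genes for corepressors, coactivators, heme, and receptor turnover, 1, 2, and 2 were rhythmic at 2, 6, and 12 months (5.88%, 11.8%, and 11.8%, beside 5.13%, 4.85%, and 3.63% of all genes). *Alas1*, the rate-limiting enzyme of heme synthesis, was called at each age, with amplitudes of 2.09, 1.26, and 1.54 and peaks at ZT13.1, ZT14.2, and ZT13.5. *Tbl1xr1*, a subunit of the NCoR complex, was called at 6 months and *Hmox1*, which degrades heme, at 12 months. *Ncor1* and *Hdac3* had amplitudes from 0.02 to 0.13 and were called at no age. In level, 2 of the 17 passed between 6 and 2 months (11.8%, near the 13.7% of all genes). Between 12 and 6 months, 3 passed (17.6%, near the 16.3% of all genes). *Hmox1* rose by 0.88 and *Tbl1xr1* by 0.48 on the log2 scale between 2 and 6 months (7.19% of all genes rose). Both were lower at 12 than at 6 months, by 0.61 and 0.55 (8.14% of all genes fell). *Gps2*, another subunit of the complex, was 0.34 higher at 12 than at 6 months. *Hmox1* is also expressed in Kupffer cells, whose summed markers ran from 384.9 to 603.7 CPM at 6 months, highest at ZT9. At 2 months they ran from 378.6 to 435.6 CPM, so that the ranges overlapped. The part of these cells in the *Hmox1* level was not tested. The change of rhythm passed in 0 of the 17 genes in any comparison of ages in edgeR or DESeq2. The unadjusted p was under 0.05 in 4, 1, and 2, beside 1443, 609, and 1452 of all genes.

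Genes with the day profile most like that of each member were ranked by Pearson r of log2(CPM + 0.5) over the 18 libraries among the 12470 genes whose mean reached 1 CPM. These r describe libraries that share times of day and ages. *Nr1d2* was followed most closely by *Dbp* (r = 0.94), and among its most inverse genes were *Pitx3* (-0.95) and *Ppard*, a lipid-sensing nuclear receptor (-0.94). Over the 12 libraries of the knockout experiment, which the ranking did not use, the r of *Nr1d2* was 0.93 with *Dbp*, -0.86 with *Pitx3*, and -0.97 with *Ppard*. For *Nr1d1*, the closest were *S100pbp* (0.87) and the sterol transporter gene *Abcg8* (0.87), and the most inverse were *Cry1* (-0.94), *Desi2* (-0.92), and the chaperone genes *Hsp90ab1* (-0.91), *Ahsa1* (-0.90), and *Fkbp4* (-0.90). In the knockout experiment, the same r were 0.35, 0.33, -0.29, -0.39, 0.15, 0.25, and 0.18. For *Rora*, the highest was *Esyt2* (0.82, and 0.50 in the knockout experiment) and the lowest *Gpn2* (-0.81, and 0.29). *Nr1d1* and *Nr1d2* had an r of 0.76 with each other in the time course and of 0.20 in the knockout experiment. *Arntl* had an r of -0.92 with *Nr1d2* in the first and of -0.87 in the second. With *Nr1d1*, the r of *Arntl* was -0.62 in the time course and -0.0021 in the knockout experiment.

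Library totals were 13375377 to 16557378 counts in the time course and 13747706 to 21748956 in the knockout experiment, where the 6 H libraries (at least 18764485) were all deeper than the 6 L libraries (at most 16633981). Liver identity held in all libraries, with none of 8 hepatocyte markers at 0 throughout and summed levels of 45116 to 131701 CPM. None of the markers of the other 8 cell types searched was at 0 in all libraries of an experiment. *Egr1* RNA was lower in the library labelled KO in 4 of 6 pairs and not lower at 2 months L and 12 months H. Comparisons of genotype therefore follow the labels, and those of the members are also given without these 2 pairs.

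In the knockout experiment, no member passed the test between WT and KO. *Egr1* itself did not pass either (log2 ratio -1.76, edgeR adjusted p = 0.313), so a missed threshold is no evidence of an equal level. *Nr1d1* in WT and KO was 6.48 and 6.07 CPM at 2 months H, 10.8 and 7.88 at 2 months L, 11.6 and 15.1 at 6 months H, 12.5 and 7.15 at 6 months L, 8.59 and 6.84 at 12 months H, and 12.5 and 3.59 at 12 months L. KO was below WT in 5 of the 6 pairs. The fitted log2 ratio of KO to WT was -0.48, with a standard error of 0.22 and an adjusted p of 0.324 (edgeR with the pair as a block). In this test, 1.58% of 13639 genes passed. The exact sign-flip test over the 6 pairs gave p = 0.125, where the smallest possible is 0.0312. Without the pair of 12 months L the log2 ratio was -0.25, and without the 2 pairs in which *Egr1* was not lower it was -0.52 (adjusted p = 0.619). The summed hepatocyte markers were 74776 to 97694 CPM in WT and 45116 to 66592 CPM in KO, ranges that do not overlap, and their part in the values of the members was not tested.

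*Nr1d2* in WT and KO was 29.8 and 33.1 CPM at 2 months H, 39.2 and 52.0 at 2 months L, 47.8 and 44.3 at 6 months H, 26.3 and 16.8 at 6 months L, 17.2 and 15.6 at 12 months H, and 19.7 and 30.4 at 12 months L. It was higher in KO in 3 pairs and lower in 3 (log2 ratio 0.05, standard error 0.14, adjusted p = 0.905, edgeR). Without the 2 pairs in which *Egr1* was not lower, the log2 ratio of *Nr1d2* was 0.0082 (edgeR adjusted p = 0.994). *Rora* in WT and KO was 50.6 and 43.2 CPM at 2 months H, 42.2 and 40.5 at 2 months L, 49.0 and 40.4 at 6 months H, 60.8 and 57.9 at 6 months L, 62.9 and 55.6 at 12 months H, and 49.3 and 49.9 at 12 months L. It was lower in 5 of 6 pairs by a small amount (-0.14, standard error 0.06, adjusted p = 0.323, exact sign-flip p = 0.0625). Without the same 2 pairs, the log2 ratio of *Rora* was -0.14 (edgeR adjusted p = 0.655). The effect of KO by age passed in none of the 3 members (0.0147% of genes), and the effect by time of collection in none either (0.00733% of genes). The largest of the latter was for *Nr1d1*, whose KO effect was 0.98 higher at H than at L (standard error 0.33, adjusted p = 0.892). *Thra* had a log2 ratio of 0.26 (adjusted p = 0.219). None of the 15 targets, the 15 regulators, or the 17 cofactor genes passed between WT and KO. At an unadjusted p under 0.05 there were 2, 0, and 3 in edgeR, beside 2182 of all 13639 genes. DESeq2 called 0 of each list and 437 of all genes. The median log2 fold changes of the lists were -0.12, 0.05, and -0.0015, and that of all genes was -0.00997.

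**Figure D4:**
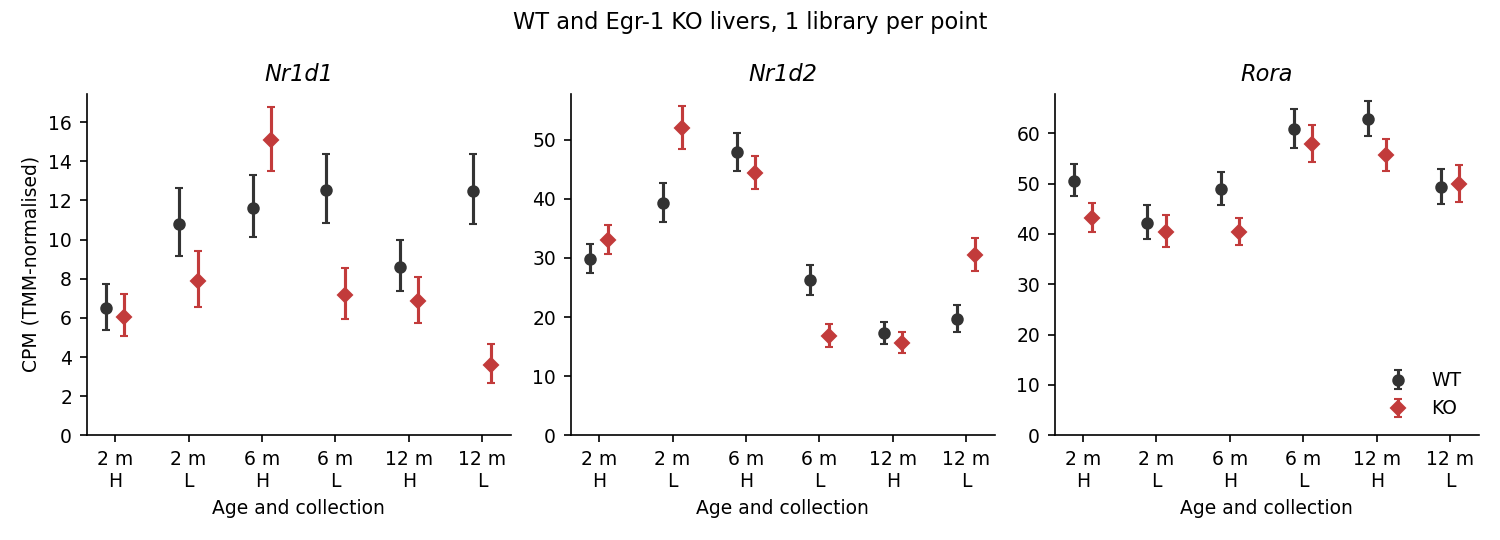
TMM-normalised CPM of *Nr1d1*, *Nr1d2*, and *Rora* in the WT and KO libraries of each age and collection (H, highest Egr-1 protein; L, lowest), with 1 library per point and exact Poisson 95% intervals. *Nr1d1* lies between 3.59 and 15.1 CPM, and the widest gap within a pair is at 12 months L (12.5 in WT and 3.59 in KO).

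The H and L collections of an age were taken at different hours of the day, so they can be read against the time course. With both genotypes as replicates, H against L passed in none of the 3 members at 2 months (0.00733% of genes), 6 months (0.11%), or 12 months (0.0587%). For *Nr1d2*, the log2 ratio of H to L was -0.55 (standard error 0.24), 1.08 (0.24), and -0.60 (0.24), with adjusted p of 0.719, 0.212, and 0.454. *Nr1d1* had -0.56 (0.39), 0.51 (0.37), and 0.01 (0.38), and *Rora* 0.16 (0.11), -0.43 (0.11), and 0.25 (0.11). At 6 months, DESeq2 called *Nr1d2* (1.09, adjusted p = 0.0020). The difference of H and L itself differed between 12 and 6 months for *Nr1d2* (-1.69, standard error 0.34, adjusted p = 0.0499), a test added after the values were seen, which 1.16% of genes passed. For 6 over 2 months it was 1.63 (adjusted p = 0.107, 0.11% of genes, and called without the filter on low counts, adjusted p = 0.00038) and for 12 over 2 months -0.06 (adjusted p = 0.971, 0.345% of genes). *Nr1d1* and *Rora* passed in none of these tests. The hours between H and L are not the same at these ages. Among the targets, *Cry1* was higher at H at 2 months (1.45, adjusted p = 0.0204), where 0.00733% of all genes were higher. *Cry1* and *Cdkn1a* were lower at H at 6 months (-1.56 and -1.28, adjusted p 0.0097 and 0.0442), where 0.0953% of all genes were lower. Of the regulators, *Cry1* was the only gene that passed at 2 and at 6 months. None passed at 12 months in either list. At that age, the unadjusted p was under 0.05 in 5 targets and 4 regulators, and DESeq2 called 1 target (*G6pc*) and 0 regulators. Of the cofactor genes, 0 passed at any age in edgeR or DESeq2, and 2, 1, and 2 had an unadjusted p under 0.05. Over all 13639 genes, the unadjusted p was under 0.05 in 909, 1351, and 1365 at 2, 6, and 12 months. DESeq2 called 30, 85, and 102 of all genes in the same order.

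The same hours of the day gave different REV-ERB levels in the 2 experiments, which were normalised separately. At 2 months, *Nr1d1* at ZT13 and ZT17 was 8.43 and 1.01 CPM in the time course and 6.48 and 10.8 CPM in WT. At 6 months, at ZT9 and ZT21, it was 29.9 and 0.97 CPM in the time course and 11.6 and 12.5 CPM in WT. At 12 months, at ZT5 and ZT21, it was 44.3 and 1.34 CPM in the time course and 8.59 and 12.5 CPM in WT. At the 3 L hours, WT was 10.7, 12.9, and 9.35 times the time course, and at the 3 H hours it was 0.77, 0.39, and 0.19 times. The log2 difference of H and L was thus 2.56, 4.37, and 4.61 in the time course and -0.69, -0.10, and -0.52 in WT. For *Nr1d2* it was 1.52, 3.29, and 2.27 in the time course and -0.39, 0.85, and -0.19 in WT. *Rora* differed little between H and L in either (-0.16, 0.23, and -0.07 in the time course; 0.26, -0.31, and 0.35 in WT). Over all 12 libraries of the knockout experiment, *Nr1d1* spanned 3.59 to 15.1 CPM (coefficient of variation 37.1%), against 112.1% in the 18 of the time course. Breeding of the mice, experiment, and hour of collection cannot be told apart here, and a single library stands for each point.

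**Figure D5:**
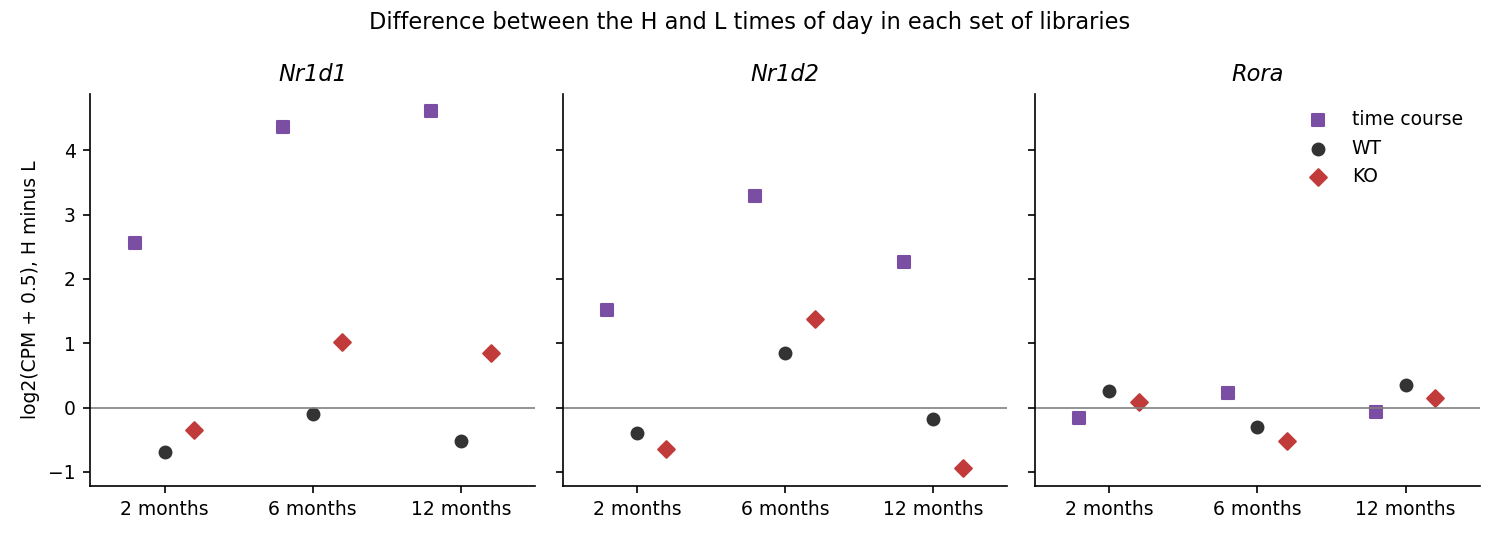
Difference between the H and L hours of the day in log2(CPM + 0.5), for *Nr1d1*, *Nr1d2*, and *Rora*, at 2, 6, and 12 months, in the time course and in the WT and KO libraries, with 1 difference per point and no replicates. *Nr1d1* is 2.56 to 4.61 in the time course and -0.69 to -0.10 in WT.

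The clock genes around the receptors moved alike in the 2 experiments to a degree that differed between the ages. The hours between H and L also differ between the ages, so that age and interval cannot be told apart. The counts below were not taken over all genes. At 2 months, 5 of the 15 regulators differed by over 2-fold between the H and L hours of the time course, of which 4 had the same direction in WT and 1 was also over 2-fold there. At 6 months, 9 did, of which 9 had the same direction and 7 were over 2-fold. At 12 months, 5 did, of which 3 had the same direction and 0 were over 2-fold. For the 15 targets, the counts were 6, 4, and 1 at 2 months, 10, 9, and 7 at 6 months, and 4, 1, and 0 at 12 months. At 6 months, *Arntl* was -2.98 in the time course and -2.85 in WT, and *Ciart*, a repressor of CLOCK and BMAL1, 2.60 and 2.56, whereas *Nr1d1* was 4.37 and -0.10. At 12 months, *Cry1* was -2.85 and -0.10, and *Dbp* 2.51 and -0.84. These values come from 1 library each and were not tested.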

How the data were processed

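Liver poly(A) RNA of 30 libraries was sequenced as paired ends. Per the labels, the authors trimmed reads with fastp, aligned them to mm10 with HISAT2, and counted them per gene with featureCounts (versions not given in the sources used here). They deposited raw counts as whole numbers in 2 tables, which were used in full (0 columns of values left out). Samples were grouped by the labels, and the hours of H and L collections were taken from the study's methods. The members and gene lists were chosen with earlier results of these data known.

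Each table was fitted in R 4.3.3 with edgeR 4.0.16 (TMM factors, filterByExpr, quasi-likelihood F-test, Benjamini-Hochberg adjustment over all genes, threshold 0.05). Time course models had age with ZT as a block, or a 24-h cosine and sine per age. Knockout models had genotype with the pair as a block, or H and L over both genotypes. Sample replicate numbers do not pair libraries. Exact permutation tests used Python 3.11.15 with scipy 1.17.1, after adding 0.5 to CPM. FPKM used library totals and merged GENCODE M21 exons. Peak intervals follow from the fitted coefficients. Upstream sequences are from RefSeq (GRCm38.p6), and 10 of 15 targets matched. Scripts were tested on simulated counts. The other genes named were *Rorb*, *Thra*, *Egr1*, genes of the 3 lists that passed a test or had 1 of the 6 smallest p of their list in any comparison, and genes among the 5 highest and 5 lowest correlations with a member. A few genes of these lists are counted but not reported here by name. Alternatives were size factors of the RLE kind, no filter, DESeq2 1.42.0, no block, and leaving out each time point or pair. Depths of 13375377 to 21748956 counts limit precision where a gene has few reads.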

Additional observations from a re-analysis of the deposited data

Results flagged for a closer look

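The change of the *Nr1d1* rhythm between 6 and 2 months (2.23, edgeR adjusted p = 0.0312) was singled out because the difference between ages was tested directly and passed. It had adjusted p from 0.0009 to 0.446 over the alternatives. Leaving out the libraries of 1 time point decided the call, since the value was 1.91 without ZT5 and 1.96 without ZT17, and it was 2.72 without ZT13, all with the call lost.

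The difference of *Nr1d2* between H and L, compared between 12 and 6 months (-1.69, edgeR adjusted p = 0.0499), was singled out for the same reason. This test was added after the values were seen. Its adjusted p was 0.0482 with RLE size factors and 0.0002 without the filter on low counts. No other alternative was run for it. Each age has 2 libraries per collection, 1 WT and 1 KO, and the H hours differ between the ages (ZT5 and ZT9).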

How the results depend on the processing

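Of 370 values of the members under alternatives, 3 lost a call, 7 gained one, and 7 changed sign without being called. The other 353 kept their direction and, where an adjusted p was given, their side of the threshold. Amplitudes, sizes of a change of rhythm, and exact p values are among them and cannot change sign. The count of 353 is therefore partly fixed in advance. Leaving out 1 time point gave 1.91 to 2.72 for the change of the *Nr1d1* rhythm between 6 and 2 months, with the call lost without ZT5, ZT13, or ZT17. It gave -0.72 to 0.28 (positive without ZT5) for the *Nr1d1* level and -0.29 to 0.16 for the *Nr1d2* level at 6 over 2 months, 0.013 to 0.62 and 0.30 to 0.81 for the *Nr1d1* level at 12 over 2 and 12 over 6 months, and 0.25 to 0.43 for *Rora* at 12 over 6 months, called without ZT1. Leaving out 1 pair gave -0.062 to 0.18 for *Nr1d2* in KO, negative without 2 months L or 12 months L. Without the ZT block, the *Nr1d1* level at 12 over 2 months was -0.14. In WT alone, *Nr1d1* at H over L was -0.10 at 6 months and -0.52 at 12 months. DESeq2 gained calls for the change of the *Nr1d2* rhythm between 6 and 2 months (0.93), *Nr1d2* at H over L at 6 months (1.09), and *Rora* at 12 over 6 months (0.34). Without the filter on low counts, the latter 2 were also called (1.10 and 0.32), as was the difference of *Nr1d2* at H over L between 6 and 2 months (1.63). Beyond what fewer samples or genes explain, the cause was not tested.

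Over all genes, edgeR's 15 calls for the change of rhythm between 6 and 2 months became 210 with DESeq2, 133 without the filter, and 0 to 68 without 1 time point. The 215 genes called between WT and KO became 437 with DESeq2, 636 without the filter, 21 without the pair block, 45 to 147 without 1 pair, and 9 without the 2 pairs in which *Egr1* was not lower. DESeq2 gave no adjusted p for *Nr1d1* at H over L at 2 and 6 months. By replicate number, no paired analysis was possible because each library is the only one of its group. The WT and KO libraries were instead paired by age and collection, and this pair was the block in the reported test. The lowest *Nr1d1* libraries hold 13 to 19 reads, which limits the precision of their values.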
